A study of Mus musculus with 40 samples.

Results

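The effect of TAK1 deletion on cardiac fibroblasts that received no ligand was measured in 8 of the 40 RNA-seq samples of the series. These were the samples labelled iCre_Con and LacZ_Con, replicates 1 to 4 of each, chosen by their labels alone, and the iCre and the LacZ sample with the same replicate number were treated as a pair. The 55414 genes of the count table included 25210 with at least 10 counts over the 40 samples, and all of these were tested. Every sample of the series came from passage 1 cardiac fibroblasts of C57BL/6J mice homozygous for a floxed TAK1 allele (TAK1fl/fl), so the controls carried the floxed alleles as well. The cells were grown in medium with bFGF and infected with an adenovirus. It expressed improved Cre recombinase (iCre) or β-galactosidase (LacZ) from the CMV promoter. Per the methods, the cells rested after infection and were serum-starved in medium without supplements before treatment. The Con samples then received neither bFGF nor another ligand, and served as the serum-starved control at 24 h. The other groups used here were the iCre and LacZ samples treated for 24 h with 20 ng/ml bFGF or with 15 ng/ml IL-1β, again 4 of each. The mice were male, and their age was not given in the labels. The virus acts on every cell it enters, whatever its type. No sample combined the iCre virus with cells that lacked the floxed allele, so an effect of Cre itself and an effect of TAK1 loss cannot be told apart.

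TAK1, encoded by Map3k7, is a kinase that sits below the receptors for IL-1, TNF, Toll-like receptor ligands and TGF-β. Bound to its TAB partners, it phosphorylates the IκB kinases and the MAP kinase kinases of the JNK and p38 pathways, which lead to NF-κB and AP-1. Cardiac fibroblasts make the collagen-rich matrix of the heart, respond to inflammatory cytokines after injury, and can become contractile myofibroblasts. In the floxed allele Cre is meant to remove exon 2, the part of Map3k7 that codes for ATP binding, and the remaining protein should be inactive as a kinase.

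The deleted exon is shown because it is what Cre recombination removes. It lies at chr4:31974823-31974933 on the plus strand of GRCm38 (mm10) in the GENCODE annotation, it is exon 2 of 16, and all of its 111 bases, or 37 codons, are coding and in frame. The capitals mark codon 63, which encodes the lysine that binds ATP.

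Map3k7 exon 2: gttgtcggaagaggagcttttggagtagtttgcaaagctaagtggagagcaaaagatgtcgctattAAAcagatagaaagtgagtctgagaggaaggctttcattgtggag

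Map3k7 (ENSMUSG00000028284, chr4:31964097-32023467) was lower in iCre than in LacZ samples. The LacZ samples had 174, 157, 172 and 178 CPM (counts scaled to a common library size with TMM factors) for replicates 1 to 4, and the iCre samples had 142, 135, 138 and 148 CPM. All 4 iCre samples lay below all 4 LacZ samples. The means were 170.5 ± 9.13 CPM and 140.7 ± 5.60 CPM (SD, n = 4 each), a log2 fold change of -0.28 (SE 0.06, edgeR quasi-likelihood test with replicate number as a block, Benjamini-Hochberg adjusted p = 0.00393). Counts were summed over whole genes, and exon 2 makes up 1.96% of the 5669-base transcript, so the loss of this exon was not measured by this value. The log2 fold change of Map3k7 was -0.40 with bFGF and -0.81 with IL-1β.

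The 8 samples had between 25360947 and 51264530 counts. Replicate number accounted for 64.1% of the sum of squares of log2 CPM over 10972 genes, virus for 26.4% and the remainder for 9.51%. The replicate 2 pair stood apart from the others and made up 53.8% of the replicate part, and along the first principal component its LacZ and iCre samples lay at 24.2 and 48.4 while the other 6 samples lay between -26.8 and 4.80. Many genes therefore had levels in replicate 2 that overlapped the other group of the other replicates although each pair differed in the same direction. The study's legends call the replicates biological, and the labels do not say whether the samples of 1 number came from the same mice.

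**Figure D1:**
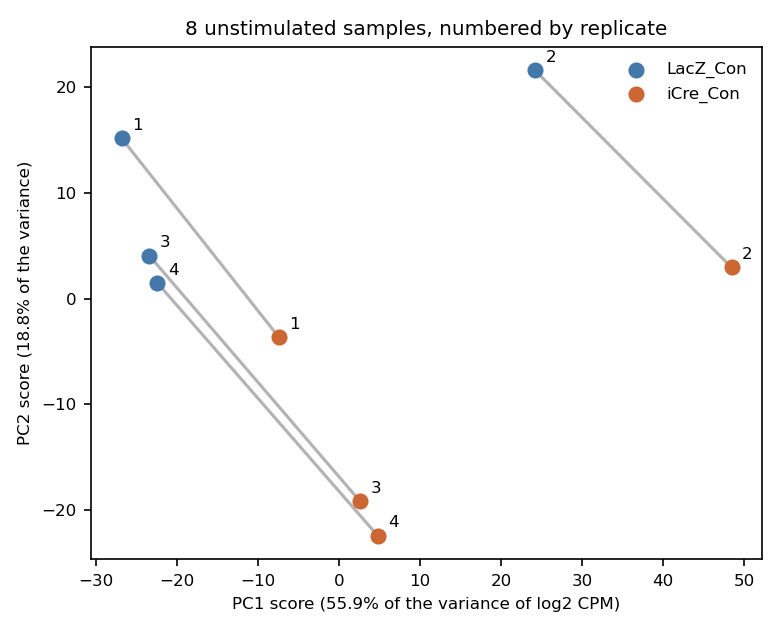
Principal components of log2 CPM in the 8 samples without ligand, with the first component (55.9% of the variance) on the x axis and the second (18.8%) on the y axis. Points are samples, coloured by virus, and each line joins the LacZ and iCre samples of a replicate number: in every pair the iCre sample lies at a higher first and a lower second component, and both samples of replicate 2 lie to the right of the others.

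TAK1 deletion without ligand changed 3655 genes at an adjusted p of at most 0.05 (14.5% of the 25210 tested), of which 1713 were higher in iCre (6.79%) and 1942 lower (7.70%). Which direction had more genes depended on the scaling and test, since RLE factors gave 1876 higher and 1818 lower and DESeq2 with the block gave 1777 and 1629. The median size of the change among them was 0.43 on the log2 scale, and 575 changed by at least 1, 183 of them higher and 392 lower. The direction of the fit was seen in 4 of 4 pairs for 3398 of the 3655 genes (93.0%). The 4 iCre samples did not overlap the 4 LacZ samples for 1366 of them, against 2229 genes without overlap among all genes tested (8.84%). These calls rest on the pairing: without replicate number in the fit, 19 genes passed. When replicate 2 was left out, 3180 genes passed, 2853 of them among the 3655 (78.1%), and the count was 2013 without replicate 3 and 2102 without replicate 4.

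Among the genes named by the rule for large changes, Nptx1 and Sema7a rose most. Nptx1, which encodes the synaptic protein neuronal pentraxin 1, had 2.78, 15.3, 3.20 and 4.37 CPM in the LacZ samples of replicates 1 to 4 and 29.7, 161.9, 60.3 and 121.0 CPM in the iCre samples. Every iCre sample lay above every LacZ sample, and both samples of replicate 2 were the highest of their group. The log2 fold change was 3.94 (SE 0.17, adjusted p = 2.41e-09), the largest rise among the called genes that averaged 5 CPM or more in the higher group. Penk, the precursor of the enkephalin opioid peptides, rose from 19.2, 13.5, 15.3 and 26.4 CPM to 58.1, 52.8, 57.3 and 122.4 CPM, a log2 fold change of 1.92 (SE 0.09) with no overlap. Sema7a, a membrane-anchored semaphorin, rose by a log2 fold change of 2.76, Nxph3, a neurexophilin, by 1.97, and Ramp3, an accessory subunit of calcitonin family receptors, by 1.91. The same rule named Prl2c2, a proliferin with near-identical gene copies whose reads may be split (2.19, uncertain for that reason), the urea transporter Slc14a1 (1.77), Stac2 (1.71) and the neuropeptide Y family receptor Npy4r (1.69). For Slc14a1 the replicate 2 pair decided the mean level, with 50.4 and 138.3 CPM against at most 5.46 CPM in the other 6 samples, while each of the 4 pairs rose.

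Among the genes named for large decreases were Cntn2, Bmx, Ccn5 and Gucy1a1. Ccn5, a secreted matricellular protein of the CCN family, had the smallest p-value of all genes. It fell from 757.8, 39.1, 389.3 and 391.4 CPM to 155.6, 7.25, 67.8 and 74.6 CPM, a log2 fold change of -2.41 (SE 0.07, adjusted p = 5.01e-12). Replicate 2 was the lowest of both groups, so the groups overlapped, but all 4 pairs fell. Gucy1a1, a subunit of the nitric oxide receptor guanylate cyclase, fell from 316.9, 37.1, 170.5 and 189.4 CPM to 112.7, 6.20, 35.8 and 35.1 CPM (-2.16, SE 0.13). Its partner subunit Gucy1b1, looked up after the values were seen, had a log2 fold change of -1.75 (SE 0.11), and both subunits were lower in 4 of 4 pairs. The cell adhesion genes Cntn2 (contactin 2) and Cdh19 (a cadherin) had log2 fold changes of -2.92 and -1.85, and the Tec family kinase Bmx had -2.47. Nr1h4, the bile acid receptor FXR, had -2.05, the matrix proteins Spon1 and Adamtsl2 had -2.07 and -1.87, and Pdlim3 and Strip2 had -2.01 and -1.96. The potassium channel subunit Kcne4 (-1.36, SE 0.06) and Tmem45a (-1.30, SE 0.06) were the others among the 5 genes with the smallest p-values.

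**Figure D2:**
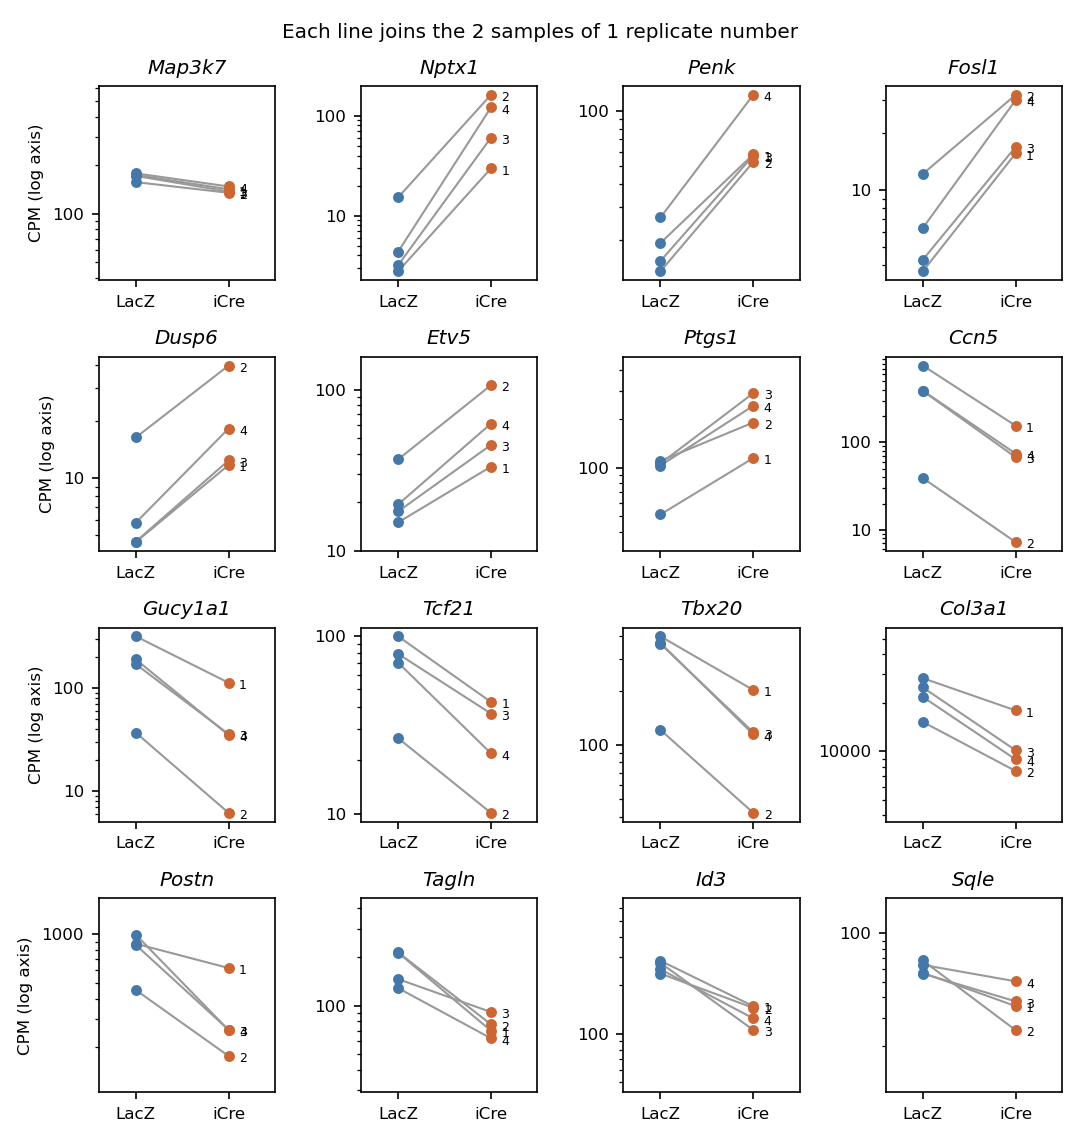
CPM (log axis) of 16 genes in the 8 samples, with LacZ on the left and iCre on the right of each panel and a line joining the samples of each replicate number. The 4 lines of Nptx1, Penk, Fosl1, Dusp6, Etv5 and Ptgs1 rise, those of Ccn5, Gucy1a1, Tcf21, Tbx20, Col3a1, Postn, Tagln, Id3 and Sqle fall, and Map3k7 falls from a mean of 170.5 to 140.7 CPM.

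Many AP-1 and immediate early genes were higher in iCre. Of 23 AP-1 and immediate early genes 14 rose and 0 fell, with a median log2 fold change of 0.51 against -0.03 over all genes tested. For scale, 6.79% of all genes, and 12.4% of those averaging 1 CPM or more, were called higher. Fosl1, which encodes the AP-1 subunit FRA-1, rose from 3.70, 12.2, 4.27 and 6.29 CPM to 15.7, 32.0, 16.9 and 30.0 CPM (1.91, SE 0.12, adjusted p = 8.54e-08). Each iCre sample exceeded each LacZ sample. Among the other AP-1 subunits Fos rose by 1.03, Jun by 0.77 and Fosl2 by 0.35, all in 4 of 4 pairs. The zinc finger transcription factors Egr1, Egr2 and Egr3 rose by 1.33, 0.84 and 1.81, and Myc and Klf4 by 0.56 and 0.55. The MAP kinase phosphatases Dusp4, Dusp5 and Dusp6, which switch off ERK, rose by 1.18, 1.41 and 1.42, and Dusp6 went from 4.58, 16.4, 4.60 and 5.80 CPM to 11.7, 39.5, 12.4 and 18.3 CPM. The groups of Dusp6 overlapped only through the LacZ sample of replicate 2.

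Other genes known to follow receptor tyrosine kinase and ERK signaling were then looked up, after these values were seen. The signaling inhibitors Spry4, Spred1, Spred2, Spred3 and Spry2 had log2 fold changes of 1.51, 0.84, 0.83, 0.60 and 0.37, all past the threshold, while Spry1 had 0.18 (adjusted p = 0.719). Spry2 was higher in 3 of 4 pairs and was not past the threshold without replicate 3 or 4. The ETS factors Etv4, Etv5 and Etv1 had 1.72, 1.43 and 1.07, and Etv5 had 15.0, 36.9, 17.5 and 19.4 CPM in LacZ against 33.2, 106.3, 45.3 and 61.4 CPM in iCre. Errfi1, an inhibitor of the EGF receptor, had 1.33, and Phlda1 had 0.79 (adjusted p = 0.00147, higher in 3 of 4 pairs). The chromatin proteins Hmga2 and Hmga1 had 1.48 and 1.05. Among ligands of the EGF receptor, Ereg had 0.74, Tgfa 0.72 and Hbegf 0.51, all past the threshold, while Areg had 0.76 (adjusted p = 0.555, higher in 2 of 4 pairs) and the receptor gene Egfr had 0.21 (adjusted p = 0.0444). Hbegf was not past the threshold without replicate 2 or 4, and Egfr was not without replicate 3 or 4. The growth factor gene Fgf2 had -0.17 (adjusted p = 0.182, lower in 3 of 4 pairs). H19, an imprinted long noncoding RNA, had 1.67, with 461.7 and 1095 CPM in replicate 2 and at most 73.2 CPM in the other 6 samples.

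Genes of collagens and other matrix proteins were mostly lower in iCre. Of 44 such genes 24 fell and 6 rose, with a median of -0.28 against -0.03 over all genes, where 7.70% of all genes and 13.7% of those averaging 1 CPM or more were called lower. Col3a1, which encodes the chain of type III collagen, had 28420, 15220, 24920 and 21760 CPM in LacZ against 17930, 7551, 10150 and 8907 CPM in iCre (-1.07, SE 0.09, adjusted p = 7.66e-07). All 4 pairs fell, and the groups overlapped because the iCre sample of replicate 1 lay above the LacZ sample of replicate 2. Postn, a matricellular protein of activated fibroblasts, fell from 876.7, 452.6, 861.6 and 997.4 CPM to 619.5, 176.4, 256.5 and 255.3 CPM (-1.40, SE 0.16), least in replicate 1. The fibril-associated collagen gene Col14a1 fell by 1.49, the elastin gene Eln by 1.30, Comp by 1.30 and the collagen-binding proteoglycan gene Fmod by 1.26. The chains of type I collagen fell less, with -0.33 for Col1a1 and -0.35 for Col1a2. Has1, a hyaluronan synthase, Vcan, a proteoglycan that binds hyaluronan, Ccn2, a matricellular growth factor, Col18a1, Thbs1 and Col6a3 rose, by 1.21, 0.73, 0.72, 0.52, 0.51 and 0.37.

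Of 32 metalloproteinases and their inhibitors 6 rose and 8 fell, with a median of -0.01, beside 12.4% and 13.7% of all genes averaging 1 CPM or more. The gelatinase gene Mmp9 and the collagenase gene Mmp13 rose by 1.54 and 1.18 from low levels, at most 3.68 and 3.89 CPM in LacZ. Mmp13 was not past the threshold without replicate 3, with all 40 samples, with filterByExpr or with protein-coding genes alone. The stromelysin gene Mmp3 fell from 1110, 1607, 1479 and 1272 CPM to 1098, 883, 709 and 650 CPM (-0.73, SE 0.12), and replicate 1 hardly moved. The inhibitor genes Timp1 and Timp3 fell by 0.64 and 0.37, and Reck, a membrane-bound inhibitor, rose by 0.24.

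Transcription factors that mark cardiac fibroblasts fell in part. Tcf21, a marker of epicardium-derived fibroblasts that is among the listed fibroblast markers, had 99.0, 26.6, 78.9 and 70.5 CPM in LacZ against 42.4, 10.1, 36.5 and 21.9 CPM in iCre (-1.34, SE 0.09, adjusted p = 7.97e-08). It was lower in 4 of 4 pairs, with overlap through replicate 2. Of the other factors of cardiac and epicardial development looked up after the values were seen, Tbx20 had -1.46 and Gata4 -0.93, both past the threshold. Gata6 (-0.04), Hand2 (0.04), Tbx5 (-0.20), Tbx18 (-0.09), Meox1 (-0.36) and Wt1 (-1.05) did not pass.

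Genes of TGF-β, SMAD and BMP signaling changed in both directions: 8 of 39 rose and 13 fell, with a median of -0.07, beside 12.4% and 13.7% of all genes averaging 1 CPM or more. All 3 Id genes that passed fell. Id3, an inhibitor of basic helix-loop-helix factors and a target of BMP signaling, went from 284.2, 236.5, 275.5 and 251.4 CPM to 148.5, 145.0, 105.8 and 124.8 CPM (-1.01, SE 0.09), with no overlap. Id4 fell by 2.12 and Id2 by 0.84, and Smad6, an inhibitory SMAD that BMP induces, fell by 0.63. Of the ligands Bmp6, Tgfb2, Bmp4 and Tgfb3 fell, by 1.16, 0.79, 0.41 and 0.22, and Bmp2, Inhba and Tgfb1 rose, by 1.35, 0.64 and 0.29. The BMP antagonist Grem1, the co-receptor Tgfbr3, the latent TGF-β binding protein Ltbp1 and the signal transducer Smad3 rose by 0.86, 0.78, 0.67 and 0.56.

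Of 26 contractile genes of myofibroblasts 4 were higher and 5 lower, near the shares of 12.4% and 13.7% among all genes averaging 1 CPM or more, and the median was -0.07. Tagln, an actin-binding protein of smooth muscle, fell from 212.8, 213.7, 145.9 and 128.3 CPM to 69.8, 76.5, 91.2 and 62.6 CPM (-1.20, SE 0.11, adjusted p = 2.86e-06), without overlap. Acta2, which encodes smooth muscle actin, fell by 0.57 (adjusted p = 0.0206) and was past the threshold neither with DESeq2 nor without replicate 2. The regulators and crosslinkers of actomyosin Smtn, Myh9, Actn1 and Vcl rose by 0.45, 0.42, 0.32 and 0.25. Without replicate 2 the counts were 7 higher and 3 lower.

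Mitotic genes were lower in iCre. Of 39 genes of DNA replication and mitosis 19 fell, from Cenpf (-1.14) to Top2a (-0.45), and these were mitotic genes such as Birc5 (survivin, -1.05), cyclin A2 (Ccna2), Plk1 (-0.92), Mki67 (-0.73) and Cdk1 (-0.48). The median of the list was -0.26, and 13.7% of all genes averaging 1 CPM or more were called lower. Plk1, a kinase of mitotic entry, had 5.35, 2.57, 18.3 and 19.02 CPM in LacZ against 3.44, 2.09, 6.63 and 9.45 CPM in iCre. All 4 pairs fell, but the groups overlapped, since replicates 3 and 4 had the higher levels in both. The 3 members that rose were Cdt1 (0.68) and Mcm6 (0.32), which act in the licensing of replication origins, and the cyclin D gene Ccnd3 (0.26). Of the 22 genes that passed 0 had groups without overlap, against 8.84% of all genes tested.

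Promoters of the mitotic genes are shown because these genes moved together. The CHR motif TTTGAA, known from promoters of late cell cycle genes, and the CCAAT box, which is bound by NF-Y, were searched on both strands from 250 bases before to 50 bases after the RefSeq start. Among the 15 lower members that had a RefSeq promoter, 11 held TTTGAA (73.3%) and 14 held CCAAT (93.3%). Of the 15 other members with a promoter 1 held TTTGAA (6.67%) and 9 CCAAT (60.0%), while 18.1% and 37.9% of all promoters held them. Among genes averaging 1 CPM or more the shares were 11.5% and 39.3%. The list joins replication genes with mitotic genes, and the lower members were mitotic. This contrast therefore cannot be told apart from the make-up of the list. Capitals mark the matches, with ATTGG as the reverse complement of CCAAT. The build is GRCm38.p6, with Plk1 at chr7:122159185-122159484 on the plus strand and Cdk1 at chr10:69352863-69353162 on the minus strand.

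Plk1 promoter: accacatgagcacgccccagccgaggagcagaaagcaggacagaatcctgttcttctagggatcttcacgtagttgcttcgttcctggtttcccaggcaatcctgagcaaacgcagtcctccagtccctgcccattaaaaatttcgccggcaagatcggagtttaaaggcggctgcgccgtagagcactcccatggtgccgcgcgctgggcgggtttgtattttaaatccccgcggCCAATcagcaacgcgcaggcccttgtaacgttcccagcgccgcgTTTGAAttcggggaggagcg

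Cdk1 promoter: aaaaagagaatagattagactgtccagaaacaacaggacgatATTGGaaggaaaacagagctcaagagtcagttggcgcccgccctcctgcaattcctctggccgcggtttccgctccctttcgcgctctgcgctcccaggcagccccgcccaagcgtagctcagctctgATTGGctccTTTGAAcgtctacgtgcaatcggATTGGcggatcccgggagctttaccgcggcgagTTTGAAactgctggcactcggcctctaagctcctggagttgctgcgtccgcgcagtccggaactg

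Genes of cholesterol synthesis were lower in iCre. Of 37 genes of cholesterol and fatty acid synthesis 23 fell and 2 rose, against 13.7% and 12.4% of all genes averaging 1 CPM or more, and the median of -0.50 was the lowest of the 18 lists. Sqle, the squalene epoxidase, had 56.9, 67.8, 56.2 and 63.7 CPM in LacZ against 35.4, 25.1, 37.8 and 50.4 CPM in iCre (-0.75, SE 0.12, adjusted p = 0.000507). No iCre sample reached a LacZ sample, and the groups did not overlap for 14 of the 25 genes that passed (8.84% over all genes tested, 1366 of the 3655 called). The decrease ran from the first steps (Hmgcs1, -0.66, which makes HMG-CoA) through the isoprenoid steps (Mvk, -0.61, Pmvk, -0.79, Idi1, -0.87 and Fdps, -1.01) to the sterol steps (Lss, -0.50, Cyp51, -0.63 and Nsdhl, -0.93). The desaturases Scd1 and Scd2 fell by 0.29 and 0.30. The 2 genes that rose were Abcg1 (0.54), which exports cholesterol, and Scap (0.33), which escorts the SREBP factors. The 12 members that did not pass included the SREBP genes Srebf1 and Srebf2, and Insig1, Insig2, Ebp, Acly, Acaca and Fasn.

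The promoters of Hmgcs1 and Idi1, from the start of the pathway and from its isoprenoid steps, are given for the same reason and with the same window. The letters CACCCCAC, a sterol regulatory element, and CCAAT were searched on both strands. Of the 14 lower members with a RefSeq promoter 12 held CCAAT (85.7%), against 7 of 12 other members (58.3%). CACCCCAC was found in 2 of the 14, Hmgcs1 and Acat2, in 0 of the 12, and in 2.77% of all promoters. Among genes averaging 1 CPM or more, 3.0% of promoters held CACCCCAC and 39.3% held CCAAT. Hmgcs1 lies at chr13:119690101-119690400 and Idi1 at chr13:8885356-8885655, both on the plus strand.

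Hmgcs1 promoter: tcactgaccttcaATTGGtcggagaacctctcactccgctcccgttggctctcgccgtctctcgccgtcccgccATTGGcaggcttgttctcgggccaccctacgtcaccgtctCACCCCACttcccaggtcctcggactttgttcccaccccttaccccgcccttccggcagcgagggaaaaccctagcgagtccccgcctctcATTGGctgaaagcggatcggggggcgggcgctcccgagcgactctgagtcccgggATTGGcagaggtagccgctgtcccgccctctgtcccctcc

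Idi1 promoter: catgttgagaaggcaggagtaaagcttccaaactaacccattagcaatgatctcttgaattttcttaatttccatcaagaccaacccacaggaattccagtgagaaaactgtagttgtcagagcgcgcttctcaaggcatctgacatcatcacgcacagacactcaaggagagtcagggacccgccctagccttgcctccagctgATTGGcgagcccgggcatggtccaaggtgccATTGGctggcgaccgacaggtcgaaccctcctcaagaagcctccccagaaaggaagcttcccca

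**Figure D3:**
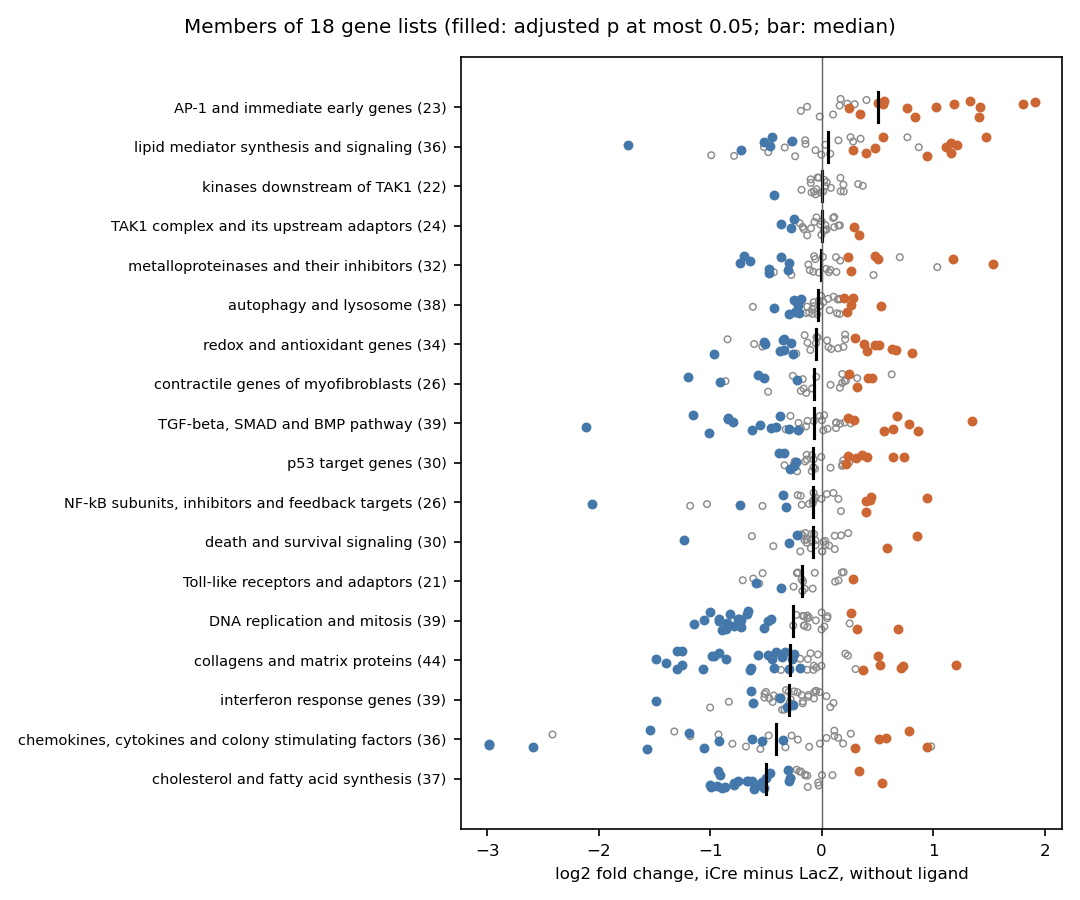
Log2 fold change (iCre minus LacZ, without ligand) of the members of 18 gene lists, 1 row per list, ordered by median, with the number of tested members in parentheses. Filled points passed an adjusted p of 0.05, open points did not, and bars are medians, which run from 0.51 for AP-1 and immediate early genes to -0.50 for cholesterol and fatty acid synthesis.

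Of 36 genes of lipid mediator synthesis and signaling 10 rose and 6 fell, with a median of 0.06, and the share that fell was close to the 13.7% over all genes averaging 1 CPM or more (12.4% for those that rose). Ptgs1, the constitutive cyclooxygenase, rose from 51.1, 110.0, 105.9 and 102.8 CPM to 114.4, 190.1, 289.0 and 241.2 CPM (1.16, SE 0.09, adjusted p = 2.67e-07), with no overlap. The inducible cyclooxygenase Ptgs2 rose by 1.21, the prostaglandin E synthase Ptges by 0.55, the phospholipase Pla2g4a by 0.48 and the prostaglandin F receptor Ptgfr by 0.94. Genes of leukotriene synthesis also rose (Alox5 by 1.16, Ltc4s by 1.12 and Lta4h by 0.28), with Alox5 and Ltc4s at no more than 2.32 CPM in any sample and Ltc4s not past the threshold without replicate 3 or 4. The fatty acid desaturases Fads1 and Fads2 fell by 0.46 and 0.52, and the monoglyceride lipase Mgll by 0.72.

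Inflammatory genes did not move as 1 group without ligand. Of 36 chemokines, cytokines and colony stimulating factors 11 fell and 5 rose, with a median of -0.41, beside the 13.7% and 12.4% of all genes averaging 1 CPM or more that were called in these directions. The count that rose was 3 without replicate 2, and the count that fell was 7 with DESeq2. The neutrophil chemokine Cxcl5 fell from 20.99, 47.7, 15.6 and 25.2 CPM to 4.92, 25.5, 6.50 and 5.88 CPM (-1.54, SE 0.16), with the iCre sample of replicate 2 at the level of LacZ samples. Cxcl1 fell by 1.19, Ccl9 by 1.57, and the alarmin Il33 and the macrophage growth factor Il34 by 0.93 and 1.06. Ccl2, a monocyte chemokine, rose from 10.3, 28.1, 9.19 and 20.8 CPM to 23.1, 45.6, 13.1 and 35.5 CPM (0.78, SE 0.10), higher in 4 of 4 pairs. Among 26 NF-κB subunits, inhibitors and feedback targets 5 rose and 4 fell, near the same shares, with a median of -0.08. The acute phase gene Saa3 fell by 2.06, while the subunit Nfkb2, the inhibitor Nfkbiz and the feedback inhibitor Tnfaip3 rose by 0.40, 0.43 and 0.40.

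Among 24 genes of the TAK1 complex and its upstream adaptors, 3 fell and 2 rose, near or below the 13.7% and 12.4% called among genes averaging 1 CPM or more. Besides Map3k7 these were the IL-1 receptor gene Il1r1 (-0.37), the adaptor Myd88 (-0.25), Traf5 (0.33) and the ubiquitin ligase Birc3 (0.29). Traf5 and Birc3 were not past the threshold without replicate 3 or without replicate 4. Without replicate 2 only 2 members fell, Map3k7 and Il1r1, so Myd88 was not past it. Of 22 kinases downstream of TAK1 only Map3k8 passed (-0.42, adjusted p = 0.0478), and it did not pass with DESeq2 or without replicate 1, 2 or 4.

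For interferon response genes the pairs differed. Of 39 genes 6 fell and 0 rose, with a median of -0.29, and the share that fell was near the 13.7% of all genes averaging 1 CPM or more. In replicate 1, 37 of the 39 were higher in iCre, whereas 2, 0 and 3 of the 39 were higher in iCre in replicates 2, 3 and 4. Mx1, an antiviral GTPase, had 0.68, 4.13, 7.09 and 12.02 CPM in LacZ against 0.98, 1.55, 1.74 and 2.83 CPM in iCre (-1.49, SE 0.29). Its LacZ sample of replicate 1 was the lowest of the 8, and Mx1 did not pass without replicate 4 or with all 40 samples. The near-identical genes Ifit3 and Ifit3b (-0.64 and -0.61) share reads and are uncertain, and neither passed with DESeq2 or without replicate 2, 3 or 4. Only Irf1, a transcription factor that interferon induces, was lower in 4 of 4 pairs without overlap (-0.26). The count that fell was 3 without replicate 2 and 3 with DESeq2 and the block.

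The other lists held few or opposing changes, to be read beside the 12.4% of all genes averaging 1 CPM or more that rose and the 13.7% that fell. Of 34 redox genes 8 rose and 9 fell. The rise included Hmox1 (0.67), Nqo1 (0.64), Srxn1 (0.51) and their regulator Nfe2l2 (0.30), and the fall included the glutathione peroxidases Gpx3 (-0.96) and Gpx4 (-0.38) and the NADPH oxidase Nox4 (-0.52). Of 30 p53 target genes 7 rose, among them Perp (0.74) and Mdm2 (0.22), and 5 fell, among them Bax (-0.33). Of 38 autophagy and lysosome genes 5 rose and 8 fell, of 30 genes of death and survival signaling 2 rose and 3 fell, and of 21 Toll-like receptors and adaptors 1 rose (Tlr4, 0.28) and 2 fell (Lbp, -0.59, and Irak3, -0.37). Without replicate 2, 3 of the autophagy genes rose, 1 of the death genes fell and 0 of the Toll-like receptor genes rose. Tlr4 was not past the threshold without replicate 2, 3 or 4, and Irak3 was not without replicate 4.

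Markers of cell types were read beside these lists, and their counts beside the 13.7% of genes averaging 1 CPM or more that were lower and the 12.4% that were higher. The fibroblast markers were abundant in all 8 samples, from 33280 to 53420 summed CPM in LacZ against from 22910 to 40920 in iCre. Of these 10, 7 were lower, while Pdgfra (0.25) and Vim (0.36) were higher. The summed level of macrophage and leukocyte markers was lower in iCre in 4 of 4 pairs, at 62.4 to 191.5 CPM in LacZ and 33.7 to 100.6 CPM in iCre. Most of that sum was Lyz2 (-0.99). Of the 9 markers tested 5 were lower and 0 higher, and Cd68 (0.34, adjusted p = 0.127) was higher in 4 of 4 pairs. Their part in the changes of chemokines and interferon genes was not tested. Endothelial markers summed to 39.2 to 55.5 CPM in LacZ and 22.2 to 47.9 CPM in iCre, and 1 of 8 passed (Tek, -1.05). Pericyte and smooth muscle markers were higher in all pairs, with sums of 233.9 to 836.9 CPM against 411 to 1117 CPM, through Rgs5 (1.15) and Cspg4 (0.95), while 3 of the 7 were lower. Their part in the changes of contractile genes was not tested. Cardiomyocyte markers summed to 19.7 to 126 CPM against 9.30 to 50.8 CPM, mostly Tnnt2 (-0.77), and Actc1 was at no more than 0.0988 CPM in any sample. Of the 6 tested 2 were lower and 1 was higher, Ryr2 (1.20, adjusted p = 0.0494), at no more than 0.869 CPM. The sums for epicardial, Schwann cell and adipocyte markers reached at most 12.9, 18.6 and 11.9 CPM. In bulk RNA, fewer cells of a type and less RNA per cell cannot be told apart.

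The same comparison in ligand-treated cells asks which of these changes depend on the stimulus. The comparisons use separate samples with the same replicate numbers. With bFGF, 3492 genes passed (13.9%), 1673 higher (6.64%) and 1819 lower (7.22%). Of the 3655 genes called without ligand, 2072 were called with bFGF in the same direction, which is 56.7% of the former and 59.3% of the latter, and 11 in the opposite direction. The same sign was seen for 94.2% of the 3655 genes. With IL-1β, 7438 genes passed (29.5%), 3684 higher (14.6%) and 3754 lower (14.9%), and 1918 of the 3655 genes (52.5%) were called in the same and 347 (9.49%) in the opposite direction.

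Several genes of feedback on the ERK pathway had smaller log2 fold changes with bFGF than without ligand. These genes were picked out with their rise without ligand known, which favours a smaller value in another condition. The log2 fold change of Etv5 was 1.43 without ligand and -0.05 with bFGF, that of Etv4 was 1.72 and -0.13, that of Dusp6 1.42 and 0.23, that of Spry4 1.51 and 0.21, and that of Fosl1 1.91 and 0.38. The test of the difference (virus by ligand) called 0 genes (0% of 25210) with edgeR, 1325 at an unadjusted p of 0.05, and 60 with DESeq2. When the replicate block was set within each ligand, a fit chosen after the data were seen, 81 genes passed (0.321%). Of these, 64 were among the genes called without ligand. In that fit the differences were -1.49 for Etv5 (SE 0.12, adjusted p = 2.03e-06), -1.86 for Etv4, -1.30 for Spry4, -1.19 for Dusp6, -1.43 for Dusp4, -1.53 for Fosl1, -1.07 for Hmga2 and -1.68 for Nptx1. Others of these genes did not pass in that fit, among them Spred1 (-0.45, adjusted p = 0.156), Spred3 (-0.33, 0.599), Spry2 (-0.28, 0.803) and Errfi1 (-0.28, 0.899). Hmga1 (-0.71, 0.0602), Ereg (-1.07, 0.0858), Spry1 (-0.48, 0.896), Phlda1 (-0.46, 0.644), Tgfa (-0.20, 0.823) and Hbegf (-0.31, 0.82) did not pass either. Ccl2 and Ccn2 also passed there, with 0.78 and 0.72 without ligand against -0.45 and -0.40 with bFGF. The calls of differences with bFGF depended on how the block was set.

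Some of the named genes had log2 fold changes of the same sign with bFGF. The log2 fold change of Ccn5 was -2.41 without ligand and -2.05 with bFGF, that of Gucy1a1 -2.16 and -1.76, that of Tcf21 -1.34 and -1.68, that of Postn -1.40 and -1.54, and that of Ptgs1 1.16 and 1.03. Counts over the lists do not show that the same genes passed. With bFGF, 25 of the 37 cholesterol and fatty acid genes and 22 of the 44 matrix genes were lower, 28 of the 39 replication and mitosis genes were lower and 0 higher, and 34 of the 39 interferon response genes were lower, against 6 without ligand. These interferon counts are no test of a difference, and in replicate 1 without ligand 37 of the 39 were higher. The main test of the difference called 0 genes. With the block within each ligand, Mx1, Ifit3, Ifit3b and Stat2 did not pass (adjusted p = 0.982, 0.714, 0.802 and 0.644). Over all genes averaging 1 CPM or more, 1703 of 13320 were lower with bFGF and 1819 without ligand.

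IL-1β altered the response of 4255 genes (16.9%) by the test of the difference, 1251 of them among the genes called without ligand. With an offset for the GC content of genes, chosen after the data were seen, 3105 genes passed this test. Nptx1 and Sema7a responded more with IL-1β (6.96 and 5.51, differences of 3.14 and 2.81). Cntn2 and Bmx, which fell without ligand, had log2 fold changes of 1.04 and -0.03 with IL-1β, neither past the threshold. The fall of Cxcl1 and Cxcl5 was larger with IL-1β (-3.67 and -4.68), and Ccl2, which rose without ligand, fell (-1.85). The same was true of the NF-κB feedback inhibitor Tnfaip3, at 0.40 without ligand and -1.58 with IL-1β. Eln and Tagln, which fell without ligand, were at 0.25 and 0.20. Of the 39 replication and mitosis genes 15 rose and 2 fell in IL-1β-treated cells, against 3 and 19 without ligand, and 32 of the 37 cholesterol and fatty acid genes were lower, with a median of -1.16. Of the 23 AP-1 and immediate early genes 18 were higher and 3 lower, with a median of 0.76. More genes passed with IL-1β in general, with 3415 higher and 3416 lower of the 13320 averaging 1 CPM or more, against 1656 and 1819 without ligand, so the list counts of these conditions are not on the same footing.

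**Figure D4:**
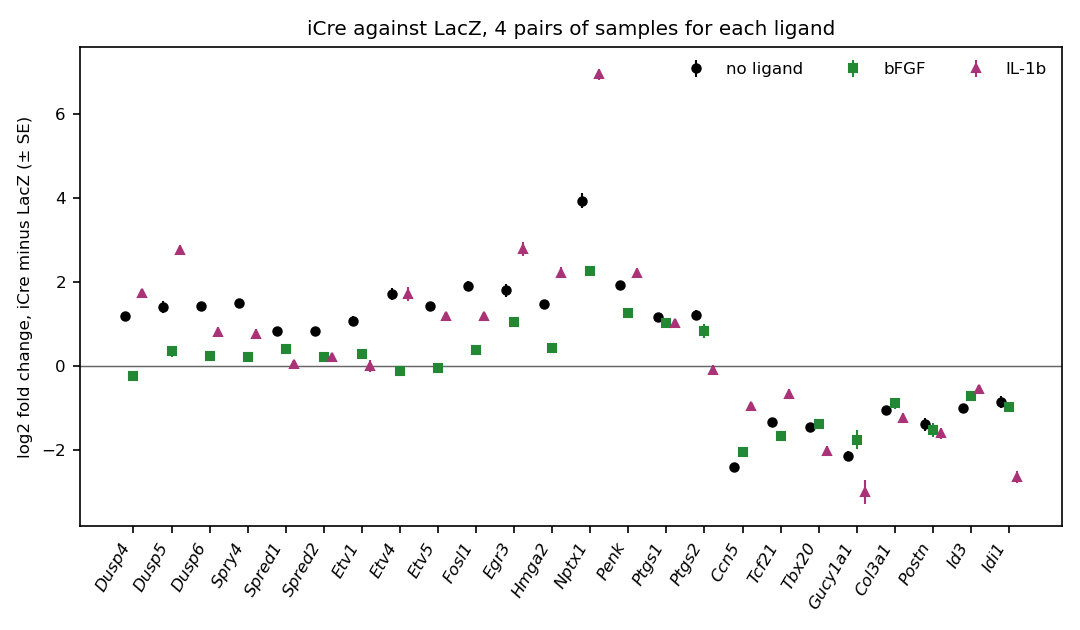
Log2 fold change (iCre minus LacZ) of 24 genes without ligand, with bFGF and with IL-1β, with error bars of 1 SE and 4 pairs per condition. Etv4, Etv5, Dusp6 and Spry4 lie between 1.42 and 1.72 without ligand and between -0.13 and 0.23 with bFGF, whereas Ccn5 and Tcf21 lie below 0 in all 3 conditions.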

How the data were processed

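RNA-seq of 40 samples (10 groups of 4) was deposited as a table of raw counts per gene. The authors aligned single-end reads of poly-A RNA to mm10 with STAR, per the methods, and HTSeq 0.10.0 and FastQC 0.10.1 are listed in the submitters' processing notes (the methods give another FastQC version). The annotation release and strand setting are not given in the sources used here, so reads of overlapping or antisense genes may be shared.

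Genes with at least 10 counts over the 40 samples were tested (25210 of 55414). edgeR 4.0.16 (R 4.3.3) fitted quasi-likelihood models with TMM factors to the 8 samples with virus and replicate number as terms, with Benjamini-Hochberg adjustment at 0.05. CPM were computed from the counts with the TMM library sizes. The samples were paired by replicate number by a fixed rule. The deviations of same-numbered samples from their group means correlated at 0.60 to 0.86 in all 4 pairs, and those of different numbers at -0.64 to 0.35. These values come from the tested samples, and deviations from a group mean sum to 0, which lowers correlations between different numbers. They are therefore no independent test of the pairing. Differences between ligands were tested as interactions over 16 samples. Counts of the 8 samples (25360947 to 51264530) limit precision, and intervals cover these samples only. Gene positions and GC content came from GENCODE M21, which held 52133 of the IDs and 99.59% of counts, and promoters from RefSeq.

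Genes named were the 12 with the largest change in each direction among calls with a mean of at least 5 CPM, seen in 4 of 4 pairs, the 4 largest changes of each list at 1 CPM or more, and the 5 smallest p-values, with others named as list members or as looked up after values were seen. A few genes that the rule names are not reported here. The comparison and gene lists were chosen with earlier results of these data known. DESeq2 1.42.0, other factors, filters and left-out replicates were tried as alternatives. The scripts were tested on simulated data.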

Additional observations from a re-analysis of the deposited data

Results flagged for a closer look

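Single samples that stood apart from the other 3 of their group (a gap to the nearest value above the 95% limit of Dixon's test) were found for 22 of 120 group values over 60 genes named in the text, where chance gives about 1 in 20. Of these, 17 came from replicate 2, 4 from replicate 1, 0 from replicate 3 and 1 from replicate 4. In replicate 2 the LacZ sample stood apart for Nptx1 (15.3 CPM), Sema7a (4.44), Egr3 (21.1), Spred1 (159.3), Phlda1 (123.9, a gene that growth factors induce) and, as the lowest, Tbx20 (121) and Gata6 (95.4). The iCre sample of replicate 2 stood apart for Nxph3 (25.8 CPM) and, as the lowest, Tgfa (17.6). Both did so for Ramp3 (9.94 in LacZ and 16.5 in iCre), Slc14a1 (50.4 and 138.3), Tbx5 (26.1 and 31.3) and H19 (461.7 and 1095 CPM). In replicate 1 the iCre sample was the highest for Adamtsl2 (5.94 CPM) and the lowest for the Y-linked translation factor Eif2s3y (46.6), and Spon1 stood apart in both samples (26.3 in LacZ and 11.9 in iCre). Penk was highest in the iCre sample of replicate 4 (122.4 CPM).

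The difference between the effect of TAK1 deletion with IL-1β and that without ligand passed the interaction test for 13 of 26 genes examined, against 16.9% of all genes tested. These genes were mostly chosen for a large change without ligand, which favours such a difference. On the log2 scale the effect was higher with IL-1β for Cntn2 (4.17), Nptx1 (3.14), Sema7a (2.81), Bmx (2.52), Slc14a1 (2.49), Nxph3 (1.74), Ccn5 (1.42), Adamtsl2 (1.38), Egr3 (1.07), Strip2 (1.06) and Kcne4 (0.30). It was lower for Stac2 (-1.30) and Map3k7 (-0.54). For Cntn2, Bmx, Ccn5, Adamtsl2, Strip2 and Kcne4 the effect without ligand was a decrease, so a higher value there is a smaller decrease, or for Cntn2 a value above 0 with IL-1β that did not pass the test. With a GC offset (an alternative chosen after seeing the data) the differences of Egr3, Adamtsl2 and Kcne4 did not pass (adjusted p = 0.0986, 0.0642 and 0.103).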

How the results depend on the processing

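The counts of genes changed by TAK1 deletion depended on the replicate block. Without ligand, 3655 genes passed with the block, 19 with no replicate block (3538 at an unadjusted p of 0.05), and 1346 with DESeq2 and no replicate block, against 3406 with DESeq2 and the block. Using all 40 samples gave 2254, and a minimum change of 1 on the log2 scale gave 575. Leaving out 1 replicate at a time gave 2013 to 4305, with 2013 without replicate 3 and 2102 without replicate 4. With bFGF the count was 0 with no replicate block (2585 at an unadjusted p of 0.05, 3320 with DESeq2 and the block) and 2111 to 3556 with 1 replicate left out. With IL-1β it was 4064 with no replicate block and 5519 to 7071 with 1 replicate left out. A GC offset, chosen after seeing the data, lowered it from 7438 to 5635. The difference between bFGF and no ligand gave 0 genes, 60 with DESeq2, 81 with the block within each ligand (chosen after seeing the data), 0 to 66 with 1 replicate left out (66 without replicate 2, 1 without replicate 3). The difference between IL-1β and no ligand gave 1943 genes with no replicate block and 2744 to 3634 with 1 replicate left out. With the GC offset it gave 3105, against 4255 in the main fit. The log2 fold change of Map3k7 was -0.28 with no replicate block, then not past the threshold, and -0.29 to -0.25 with 1 replicate left out. The count without ligand stayed within 1.5 times under RLE factors (3694), filterByExpr (3428), no filter (3828), protein-coding genes alone (3278) and a GC offset (3635). More genes were lower than higher without ligand (1942 and 1713), but more were higher with DESeq2 and the block (1777 higher, 1629 lower), RLE factors (1876 and 1818), all 40 samples (1183 and 1071) and without replicate 1 (2268 and 2037). Contractile genes went from 4 higher and 5 lower to 7 and 3 without replicate 2. Of the named genes that passed, 0 changed the sign of the log2 fold change in the alternatives run. Of 112 named genes, 110 did not pass with no replicate block, 36 with all 40 samples and 13 with filterByExpr. Of the same 112, 6 did not pass with DESeq2 and the block, 3 with a GC offset and 2 with RLE factors. Without replicates 1, 2, 3 and 4, the numbers that did not pass were 4, 12, 17 and 20. With protein-coding genes alone 12 of 111 did not pass, and with DESeq2 and no replicate block 63 of 109. The causes were not tested.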
